A study of Mus musculus with 24 samples.

Results

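Distal and proximal ends of the lower jaw (mandible) were compared in control mouse embryos at embryonic day 14.5 (E14.5). The comparison used 6 of the series' 24 Affymetrix Mouse430_2 arrays, chosen by their titles. Of these, 3 held RNA of the distal end of control mandibles and 3 held RNA of the proximal end. All differences are given as distal minus proximal on the log2 scale, so a positive value means a higher signal at the distal end and a value of 1 is a 2-fold difference.

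The series crossed Wnt1cre;Tgfbr2fl/+ with Tgfbr2fl/fl mice (strain label C57B6) and divided each mandible and each maxilla (upper jaw) into a distal and a proximal end. The control embryos were litter mates that lacked the cleft palate and calvarial defect by which mutants were recognised, and the labels give no further genotype for them. The 6 control mandible arrays are set here beside 6 arrays of mutant mandibles and 6 of control maxillae, each again 3 distal and 3 proximal. In the mutants Wnt1cre recombines Tgfbr2, the type II TGF-beta receptor gene, in neural crest cells, so their epithelium, skeletal muscle and endothelium keep the gene. The labels do not say whether an array held 1 embryo or a pool, nor where the cut between the ends lay. The p-values therefore measure only how far these samples scatter, and that scatter may be technical in part.

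The mesenchyme of the mandible comes from cranial neural crest that fills the first pharyngeal arch, while its epithelium comes from the surface of the arch and its muscle from mesoderm. Endothelin and BMP signals from the arch set up nested domains of transcription factors, with Hand and Msx genes toward the distal midline and Barx1 and other genes nearer the future jaw joint. At E14.5 the distal end carries the incisor tooth germs and the midline, and the proximal end carries the molar germs, the ramus and the forming jaw joint. Membranous bone is being laid down along Meckel's cartilage, a rod that runs through both ends.

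The 2 ends differed at 740 of 12820 genes tested (5.77%), of which 312 (2.43%) were higher and 428 (3.34%) were lower at the distal end. A gene counted as called when its Benjamini-Hochberg adjusted p in limma, over all genes tested, was under 0.05. With the replicate number as a block the count was 1382, and it held 738 of the 740 genes. A fit of only the 6 arrays compared called 751 genes, of which 482 were among the 740, and 1494 with the replicate block, of which 642 were among the 740. Of the 76 genes named by rule and called, 15 were not called in the fit of the 6 arrays without the block. They were Isl1, Serpinb12, Krt4, Krt13, Chgb, Gna11, Nkx2-3, Cdh4, Dkk1, Wnt6, Tgfb1, Tgfb2, Epha1, Ccnd2 and Tlx1, with adjusted p between 0.0535 and 0.131. With the block in that fit, Chgb, Gna11, Tgfb2 and Ccnd2 were not called. Of the 740 genes, 221 (1.72% of all tested) also differed at least 2-fold, 126 of them higher and 95 lower at the distal end. The median difference of all genes was 0.00269 and the median size of a difference was 0.0966, against a median standard error (SE) of 0.106. Leaving out 1 array at a time gave 384 calls without distal array 1, 593 without distal array 2, 342 without distal array 3, 303 without proximal array 1, 467 without proximal array 2 and 461 without proximal array 3. All 6 of these fits called 239 of the 740 genes.

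**Figure D1:**
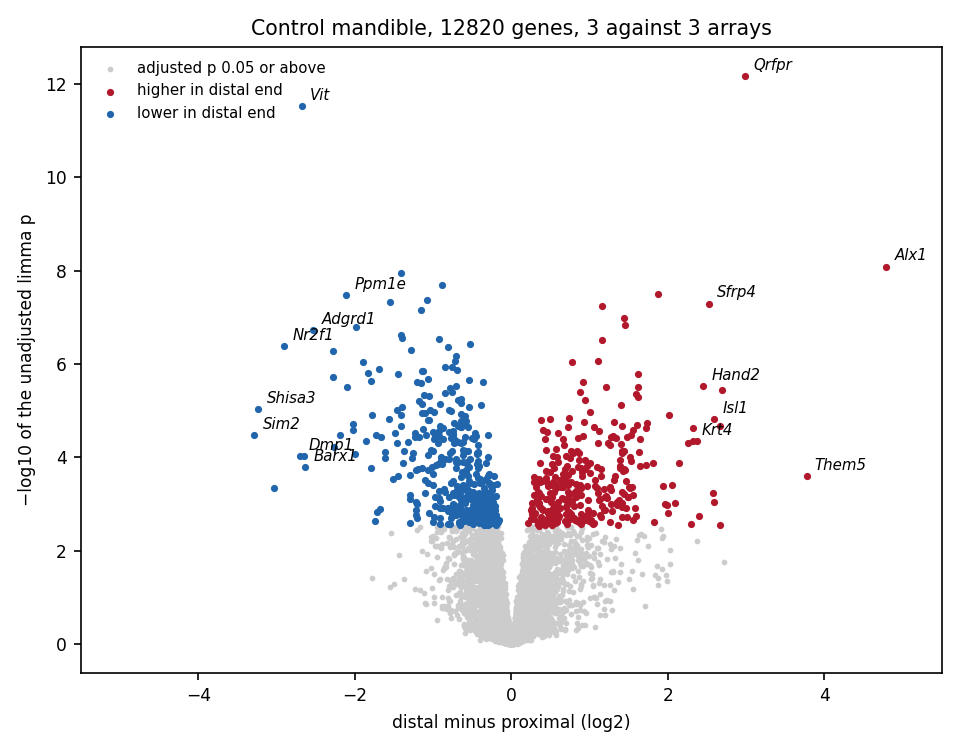
Each point is 1 of 12820 genes in the control mandible. The horizontal axis gives the distal minus proximal difference (log2) and the vertical axis the −log10 of the unadjusted limma p. Red points are the 312 genes called higher at the distal end, blue points the 428 called lower, and grey points were not called. Alx1 lies farthest to the right at 4.79 and Sim2 farthest to the left among the labelled genes at −3.29.

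The 6 arrays had medians between 6.96 and 6.98 on the log2 scale. Arrays with the same number at both ends also matched in sex-linked signal. Xist, transcribed from the inactive X chromosome, was at 13.32 and 13.40 in the distal and proximal arrays 1, with the Y-linked Eif2s3y at 7.47 and 7.66. In the arrays numbered 2 Xist was at 12.55 and 12.43 while Eif2s3y was at 9.55 and 9.45. In the arrays numbered 3 Xist was at 6.56 and 6.38 and Eif2s3y at 10.22 and 9.98. Leaving out both arrays numbered 2 gave 369 calls, and leaving out both numbered 3 gave 221. Proximal array 3 stood apart in 15 neuron genes, whose mean signal was 9.24 there and between 7.46 and 7.87 in the other 5 arrays. Bone matrix genes were bright at both ends, with list means of 11.34 to 11.50 in the distal and 12.13 to 12.57 in the proximal arrays. The list mean of cell cycle genes was 11.67 to 11.76 in the same 6 arrays, so brightness alone does not mark bone. The samples are pieces of jaw, so fewer cells of a type and less RNA per cell cannot be told apart.

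Although genes such as Alx1 and Sim2 differed more, promoter windows of 6 genes picked from the gene lists are shown first. They are the 2 called genes with the largest difference and a RefSeq window among the distal jaw factors (Isl1 and Hand2, higher at the distal end), among the proximal and maxillary factors (Nr2f1 and Barx1, lower) and among the bone genes (Dmp1 and Phex, lower). Each window of 300 bases spans a RefSeq start (GRCm38.p6), most of it upstream, and is written 5′ to 3′ on the strand of the gene. Capitals mark TAATTA, a core bound by many homeodomain proteins, and TGTGGT or its reverse complement ACCACA, a core bound by Runt factors. The motifs do not overlap each other.
Isl1 (chr13:116309639-116309938, minus strand): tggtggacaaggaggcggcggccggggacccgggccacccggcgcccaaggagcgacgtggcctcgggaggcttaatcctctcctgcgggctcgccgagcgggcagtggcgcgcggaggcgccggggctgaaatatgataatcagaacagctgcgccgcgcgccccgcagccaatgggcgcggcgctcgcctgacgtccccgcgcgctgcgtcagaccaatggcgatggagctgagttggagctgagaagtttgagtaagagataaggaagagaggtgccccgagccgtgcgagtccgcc
Hand2 (chr8:57320733-57321032, plus strand): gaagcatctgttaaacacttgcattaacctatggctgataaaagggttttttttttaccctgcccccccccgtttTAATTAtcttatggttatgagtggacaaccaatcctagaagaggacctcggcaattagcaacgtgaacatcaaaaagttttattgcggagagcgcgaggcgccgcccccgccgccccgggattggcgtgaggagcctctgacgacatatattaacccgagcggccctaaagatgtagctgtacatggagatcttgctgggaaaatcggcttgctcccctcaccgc
Nr2f1 (chr13:78198824-78199123, minus strand): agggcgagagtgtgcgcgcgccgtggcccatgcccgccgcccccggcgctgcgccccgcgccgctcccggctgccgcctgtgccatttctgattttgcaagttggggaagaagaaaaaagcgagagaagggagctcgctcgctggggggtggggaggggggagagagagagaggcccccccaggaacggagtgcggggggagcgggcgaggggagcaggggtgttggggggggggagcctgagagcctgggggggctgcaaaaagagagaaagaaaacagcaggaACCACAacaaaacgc
Barx1 (chr13:48662786-48663085, plus strand): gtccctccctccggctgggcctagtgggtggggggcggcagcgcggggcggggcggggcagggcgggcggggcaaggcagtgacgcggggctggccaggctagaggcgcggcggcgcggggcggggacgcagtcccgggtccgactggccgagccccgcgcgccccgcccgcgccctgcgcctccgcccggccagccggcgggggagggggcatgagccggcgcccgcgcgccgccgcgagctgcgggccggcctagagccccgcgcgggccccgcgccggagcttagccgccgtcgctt
Dmp1 (chr5:104197325-104197624, plus strand): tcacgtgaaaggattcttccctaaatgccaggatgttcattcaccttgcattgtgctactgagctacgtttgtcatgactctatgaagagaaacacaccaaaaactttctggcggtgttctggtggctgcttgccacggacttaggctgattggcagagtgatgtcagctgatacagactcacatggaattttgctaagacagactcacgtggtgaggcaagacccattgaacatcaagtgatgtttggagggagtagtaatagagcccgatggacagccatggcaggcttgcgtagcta
Phex (chrX:157415237-157415536, minus strand): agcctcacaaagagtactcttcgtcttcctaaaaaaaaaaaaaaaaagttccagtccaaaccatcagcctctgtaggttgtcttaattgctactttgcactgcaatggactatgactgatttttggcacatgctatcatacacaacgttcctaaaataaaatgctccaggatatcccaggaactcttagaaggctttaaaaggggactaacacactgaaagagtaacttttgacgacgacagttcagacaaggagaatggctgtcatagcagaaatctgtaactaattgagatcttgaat

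The homeodomain core was in 1 of the 6 windows, that of Hand2, against 5.3% of 32817 RefSeq windows of this length. The Runt core was in 1 of the 6, that of Nr2f1, against 16.8% of all windows. Nr2f1 and Dmp1 each have 2 windows in the table, of which the first is shown. A match is a description of letters and no match says only that these letters are not in the window shown.

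Transcription factors that mark the distal midline of the jaw had the largest median of the 34 gene lists at the distal end. Of 7 such genes tested, 5 rose and none fell, with a median difference of 1.82 over the 7, where 2.43% of all genes rose. The lists here and below were chosen with earlier results of these data known. Shares over all genes set beside them are therefore no test. Alx1, a homeodomain factor of frontonasal and midline mesenchyme, had signals of 12.02, 11.91 and 11.58 in the distal arrays, against 7.25, 7.80 and 6.09 in the proximal arrays. It was bright in each distal array and near the array median in the proximal ones. Its difference was 4.79 ± 0.48 (adjusted p = 3.52e-05), with 1 proximal array under its array median, and a second Alx1 probe set gave 4.53. Here and below a value after ± is the SE of the difference in limma, with 3 arrays in each group.

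Isl1, a LIM homeodomain factor of the distal arch, was at 10.76, 10.26 and 10.74 in distal arrays, against 6.85, 7.78 and 9.34 in proximal arrays. The proximal arrays were spread over more than 2 log2 units, and the groups did not overlap. The difference was 2.59 ± 0.44 (adjusted p = 0.00217), and 3.27 without proximal array 3, the highest proximal array. Hand2, a basic helix-loop-helix factor that acts downstream of endothelin signalling, was at 12.56, 12.49 and 12.19 in distal arrays, against 9.78, 10.01 and 10.09 in proximal arrays. All 6 arrays were well above their medians, and the difference was 2.45 ± 0.37 (adjusted p = 0.000772). Its other 2 probe sets, which were dimmer, gave 1.46 and 1.66.

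Pax3, a paired-domain factor of neural crest and muscle precursors, was at 10.60, 10.47 and 9.98 in distal arrays, against 8.68, 8.63 and 8.30 in proximal arrays. It rose by 1.82 ± 0.38 (adjusted p = 0.0071), and its 2 other probe sets gave 1.81 and 1.97. Msx2, a homeodomain factor that responds to BMP, was at 10.26, 9.73 and 9.61 in distal arrays, against 8.21, 8.49 and 8.10 in proximal arrays. It rose by 1.60 ± 0.44 (adjusted p = 0.0382), and the call was lost when any 1 of the 6 arrays was left out, with adjusted p up to 0.153. Its paralogue Msx1 was bright at both ends, at 12.28, 12.31 and 12.12 in distal arrays and 11.98, 11.92 and 11.76 in proximal arrays. The Msx1 difference of 0.35 ± 0.31 did not pass (adjusted p = 0.663). Hand1, the paralogue of Hand2, differed by 0.31 ± 0.12 (adjusted p = 0.156, and 0.0423 with the replicate block). The fit of only the 6 arrays called 4 of the 7 genes of this list higher. With the replicate block that fit called all 7 higher, Msx1 and Hand1 among them. Alx4 did not pass the filter on low signals and was not tested.

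**Figure D2:**
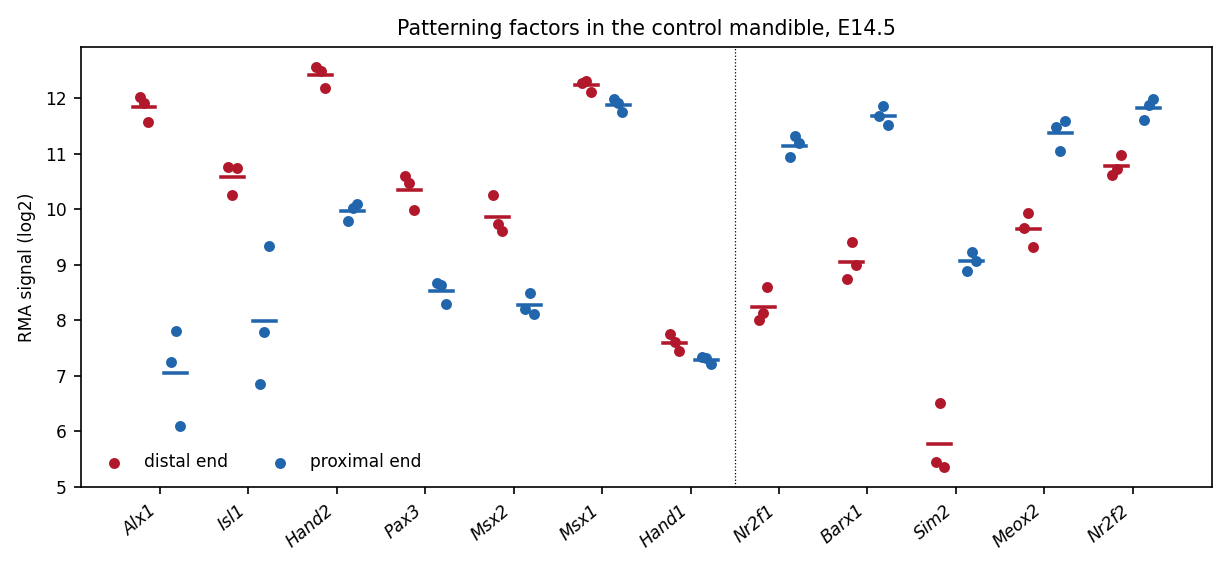
Log2 RMA signal of 12 patterning factors in the control mandible. Red points are the 3 distal arrays and blue points the 3 proximal arrays of each gene, with a bar at their mean. The dotted line separates distal jaw factors (left) from factors with lower distal means (right). Alx1 averaged 11.84 in distal arrays and 7.05 in proximal arrays, and Nr2f1 averaged 8.24 in distal arrays and 11.15 in proximal arrays.

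Among the patterning and mesenchymal factors the largest falls at the distal end were those of Sim2, Nr2f1 and Barx1. Nr2f1, an orphan nuclear receptor used as a marker of maxillary identity, was at 8.0, 8.13 and 8.60 in distal arrays, against 10.93, 11.33 and 11.19 in proximal arrays. It fell by 2.90 on the log2 scale at the distal end (SE 0.38, adjusted p = 0.00024). Its paralogue Nr2f2 was at 10.62, 10.73 and 10.98 in distal arrays, against 11.61, 11.88 and 11.98 in proximal arrays. Nr2f2 fell by 1.05 (SE 0.18, adjusted p = 0.00223). These were the 2 called genes of 9 tested on the maxillary identity list, whose median was −0.39, where 3.34% of all genes fell.

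Barx1, a homeodomain factor of proximal arch and molar mesenchyme, was at 8.74, 9.41 and 9.00 in distal arrays, against 11.67, 11.87 and 11.52 in proximal arrays. It fell by 2.64 (SE 0.56, adjusted p = 0.00803). Of the 10 tested genes of the proximal arch and jaw joint list, only Barx1 fell and only Foxd1 rose, and the list median was −0.11. Over all genes 3.34% fell and 2.43% rose. Foxd1, a forkhead factor that responds to hedgehog signals, rose by 1.41 ± 0.39 (adjusted p = 0.0386). The Foxd1 call was lost in each fit that left out 1 array, except that without proximal array 2, with adjusted p up to 0.213. Six2, a homeodomain factor, differed by −0.89 ± 0.26 (adjusted p = 0.0504, and 0.0234 with the replicate block). The other 7 genes (Emx2, Eya1, Gdf5, Gsc, Pitx1, Tbx1 and Tshz1) had differences between −0.33 and 0.66, and none passed. Gdf5, a growth factor of forming joints, was at 7.82, 8.11 and 7.59 in distal arrays and at 7.91, 8.31 and 7.43 in proximal arrays, and the groups overlapped.

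The Dlx homeodomain genes, whose nested combinations set upper and lower jaw identity, mostly had lower distal means. Of the 6, only Dlx6 fell in the fit of all arrays without the block, where 3.34% of all genes fell, and the list median was −0.54. The replicate block in that fit also gave 1 lower. The fit of only the 6 arrays compared called 4 Dlx genes lower, with or without the replicate block. The fit of the 12 mandible arrays called 4 lower, and array weights and the fit of the 12 control arrays each called 3. Leaving out both arrays numbered 2, or both numbered 3, gave 0 calls. Dlx6 was at 9.64, 10.05 and 9.60 in distal arrays, against 10.65, 10.87 and 10.68 in proximal arrays. It fell by 0.98 (SE 0.24, adjusted p = 0.0211), and the call was lost in each fit that left out 1 array, except that without distal array 2, with adjusted p up to 0.0959. Its linked partner Dlx5 differed by −0.51 ± 0.19 (adjusted p = 0.145) and Dlx1 by −1.14 ± 0.40 (adjusted p = 0.113). Dlx2, Dlx3 and Dlx4 differed by 0.03, −0.57 and −0.13, and none passed in the fit of all arrays without the block.

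Genes of the endothelin pathway, which signals through Gq-family proteins and Mef2c to switch on Dlx and Hand genes, had small differences. Of 8 tested, 2 fell and none rose, where 3.34% of all genes fell, and the median was −0.07. With the replicate block 1 of the 8 fell. Edn1, the ligand, was at 6.89, 7.00 and 7.13 in distal arrays and at 6.74, 6.98 and 6.98 in proximal arrays, at or near the array median at both ends. Mef2c fell by 0.50 (SE 0.14, adjusted p = 0.0478, and 0.0582 with the replicate block, where the call was lost). Gna11, a Gq-family subunit, fell by 0.21 (SE 0.05, adjusted p = 0.0283). The Mef2c call was lost without any 1 of the 6 arrays, with adjusted p up to 0.186, and the Gna11 call without any 1 array other than proximal array 2, with adjusted p up to 0.161. The receptor gene Ednra was not analysed here. Ednrb, Ece1, Ece2, Gnaq and Plcb3 had differences between −0.47 and 0.30, and none passed.

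Other mesenchymal transcription factors split both ways, with 3 higher and 4 lower at the distal end among 26 tested and a median of −0.23. Over all genes 2.43% rose and 3.34% fell. Sim2, a bHLH-PAS factor of palate and jaw mesenchyme, was at 5.45, 6.52 and 5.36 in distal arrays, against 8.89, 9.22 and 9.07 in proximal arrays. It fell by 3.29 (SE 0.60, adjusted p = 0.00314), and all 3 distal values lay under their array medians. Meox2, a homeodomain factor of muscle and limb mesenchyme, was at 9.66, 9.93 and 9.32 in distal arrays, against 11.49, 11.04 and 11.60 in proximal arrays. It fell by 1.74 (SE 0.49, adjusted p = 0.0433). Shox2, a homeodomain factor of the proximal jaw and palate, fell by 0.98 (SE 0.25, adjusted p = 0.0277). Zfhx4, a zinc finger homeobox gene picked out after its value was seen, fell by 0.71 (adjusted p = 0.00628). Tbx22, a T-box gene of the palate, rose by 1.94 ± 0.45 (adjusted p = 0.0153). Tfap2a, an AP-2 factor of crest and surface epithelium, rose by 1.53 ± 0.31 (adjusted p = 0.00681). Foxf2, a forkhead gene that responds to hedgehog signals, rose by 1.49 ± 0.37 (adjusted p = 0.0215). Fits that left out 1 array, and so had fewer arrays, lost 4 of these calls. Meox2 was not called without any 1 of the 6 arrays (adjusted p up to 0.167), Shox2 without any 1 other than distal array 3 (up to 0.137) and Foxf2 without any 1 other than proximal array 2 (up to 0.0938). Tbx22 was not called without distal array 3, proximal array 1 or proximal array 3 (up to 0.0801).

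Bone genes were lower at the distal end as a group. Of 17 genes of the osteoblast and bone matrix list tested, 11 fell and 1 rose, with a median of −0.82, where 3.34% of all genes fell and 2.43% rose. Dmp1, a matrix protein of osteocytes and late osteoblasts, was at 10.16, 9.65 and 9.81 in distal arrays, against 13.07, 12.45 and 12.19 in proximal arrays. It fell by 2.70 (SE 0.54, adjusted p = 0.0057), and its 2 other probe sets gave −2.86 and −2.93. Phex, an endopeptidase that regulates mineralisation, was at 8.04, 8.98 and 8.91 in distal arrays, against 11.67, 11.21 and 11.01 in proximal arrays. It fell by 2.65 (SE 0.53, adjusted p = 0.00566), while a dim second probe set with means of 5.00 in distal and 5.31 in proximal arrays gave −0.31.

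Ifitm5, an osteoblast membrane protein, was at 10.82, 10.44 and 10.80 in distal arrays, against 13.04, 12.54 and 12.47 in proximal arrays. It fell by 2.00 (SE 0.40, adjusted p = 0.00531). Kazald1, a secreted protein of the insulin-like growth factor binding superfamily, fell by 1.49 (SE 0.27, adjusted p = 0.00304). Smpd3, a sphingomyelinase needed for mineralisation, fell by 1.22 (SE 0.31, adjusted p = 0.0245). Sp7 and Col1a1 were picked out after their values were seen. Sp7, the osteoblast transcription factor, fell by 1.18 (adjusted p = 0.00315), and Col1a1, the main chain of type I collagen, fell by 1.20 (adjusted p = 0.0265). The 1 gene that rose was Sfrp4, a secreted Wnt antagonist, at 12.40, 12.28 and 12.03 in distal arrays, against 9.94, 9.79 and 9.40 in proximal arrays. Its difference was 2.53 ± 0.29 (adjusted p = 6.52e-05).

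The number of bone genes called was smaller in each fit that left out 1 array, where fewer arrays remained. It was 6 lower without distal array 1 or 2, 5 without distal array 3 or proximal array 1, and 8 without proximal array 2 or 3. The Smpd3 call was lost in each of these fits except that without proximal array 3, with adjusted p up to 0.137, and the Col1a1 call in each except that without proximal array 2, with adjusted p up to 0.146. Dmp1, Phex, Ifitm5, Kazald1 and Sfrp4 were called in all 6. Runx2, Bglap, Spp1, Bmp3, Phospho1 and Ostn were not analysed here and Mepe did not pass the filter. The osteoclast list had 0 of 9 genes called, where 5.77% of all genes were, and a median of −0.61. Every member was lower by sign. The list mean was 9.02 to 9.05 in the distal and 9.47 to 9.87 in the proximal arrays. In the mutant mandible 8 of the 9 were called lower, where 9.73% of all genes were, with a median of −1.03. In the control maxilla the list median was 0.71 and 1 gene was called higher. The part of osteoclast genes in the bone result was not tested.

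**Figure D3:**
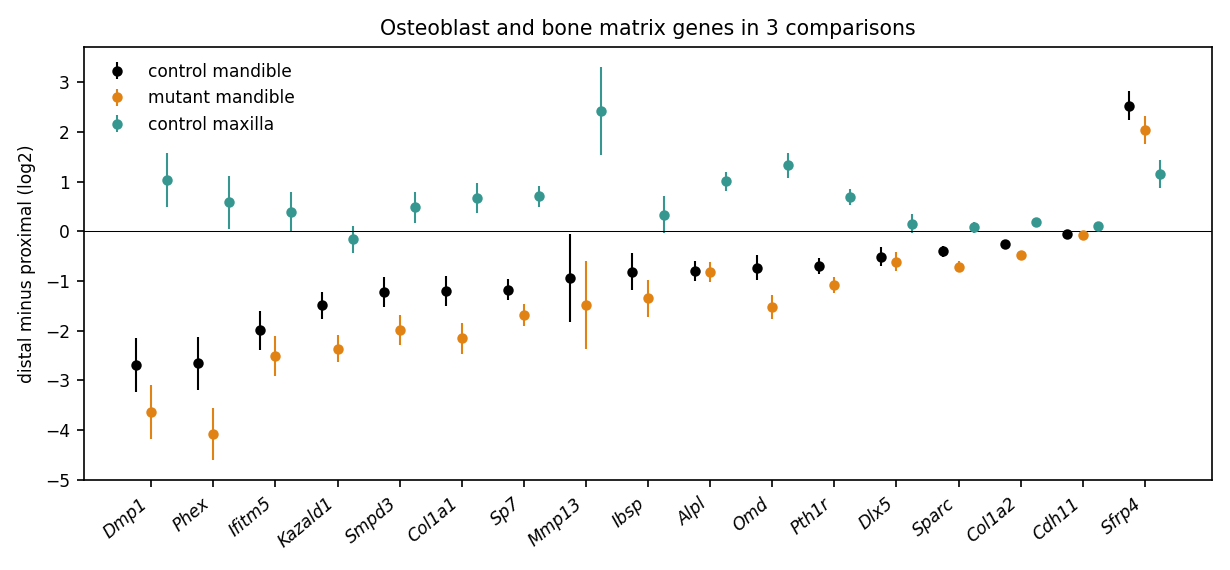
Distal minus proximal difference (log2, with SE bars) of the 17 tested osteoblast and bone matrix genes in the control mandible (black), the mutant mandible (orange) and the control maxilla (green). Dmp1 was at −2.70 in control mandible, −3.64 in mutant mandible and 1.03 in control maxilla, and Sfrp4 was positive in all 3.

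Cartilage genes, which mark Meckel's cartilage and the first condylar cells, had 1 lower and none higher of 23 tested, where 3.34% of all genes fell and 2.43% rose. By sign 17 of the 23 were higher at the distal end, with a median of 0.57. The fit of only the 6 arrays with the replicate block called 6 higher and 3 lower. Ihh, a hedgehog ligand of maturing cartilage, was at 6.96, 6.78 and 6.64 in distal arrays, against 7.88, 7.37 and 7.45 in proximal arrays. It fell by 0.78 (SE 0.14, adjusted p = 0.00324). The cartilage list mean varied within each end, from 9.76 to 10.95 in distal arrays and from 9.09 to 10.81 in proximal arrays, with the arrays numbered 3 lowest at both ends. It was 10.75, 10.95 and 9.76 in distal arrays 1, 2 and 3, against 10.52, 10.81 and 9.09 in the proximal arrays of the same numbers, so the distal array was the higher of each pair. Col2a1, the main cartilage collagen, was picked out after its value was seen and differed by 0.40 ± 1.06, an SE larger than the difference.

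Tendon and ligament genes had 3 called lower, none higher, and a median of −0.51 among 15, where 3.34% of all genes fell. Of the 3, Egr1 and Egr2 are also immediate early genes, switched on within minutes by many stimuli. Egr2 was at 6.11, 6.20 and 5.93 in distal arrays, against 7.64, 7.56 and 7.39 in proximal arrays. It fell by 1.45 (SE 0.21, adjusted p = 0.000543). Egr1 fell by 1.07 (SE 0.18, adjusted p = 0.00218). Thbs2, a matrix protein of connective tissue, fell by 0.74 (SE 0.19, adjusted p = 0.0259), with the call lost without any 1 array other than proximal array 2 (adjusted p up to 0.106). On the immediate early list 3 of 17 fell and none rose (5 fell with the replicate block), Nr4a1 being the third, at −0.46 ± 0.10 (adjusted p = 0.0105, and up to 0.0665 without distal array 3 or proximal array 1, where it was not called). Fos, Jun and Junb, the best known members, were picked out afterwards and differed by −0.13, 0.11 and −0.08.

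Epithelial genes were higher at the distal end. Of 28 genes of oral and skin epithelium tested, 13 rose and none fell, and all 28 were higher by sign, with a median of 1.40, where 2.43% of all genes rose. The list mean was 10.51, 9.78 and 11.12 in distal arrays, against 8.94, 8.79 and 9.31 in proximal arrays. Distal array 2 was the lowest distal array and the groups did not overlap. Krt14, a keratin of basal epithelium, was at 12.75, 12.16 and 12.97 in distal arrays, against 11.08, 10.63 and 11.23 in proximal arrays. It rose by 1.65 ± 0.35 (adjusted p = 0.00801). Dsc3, a desmosomal cadherin, rose by 1.65 ± 0.31 (adjusted p = 0.00327).

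Keratins of stratified and oral epithelium showed larger and more variable rises. Krt4 was at 10.99, 9.56 and 11.97 in distal arrays, against 8.88, 8.19 and 8.49 in proximal arrays, a difference of 2.32 ± 0.44 (adjusted p = 0.0035), and 2.96 without distal array 2. Krt13, its partner in oral epithelium, was at 11.50, 8.85 and 11.72 in distal arrays, against 9.01, 7.44 and 7.86 in proximal arrays. Distal array 2 lay below proximal array 1, so the Krt13 groups overlapped. The difference was 2.59 ± 0.65 (adjusted p = 0.0245), and 3.51 without distal array 2. Krt1, a keratin of differentiating skin, rose by 2.67 ± 0.78 (adjusted p = 0.0493), and Krt6a, of stressed and oral epithelium, by 2.30 ± 0.66 (adjusted p = 0.0468).

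Many of these calls were lost in fits that left out 1 array, where fewer arrays remained. The number of epithelial genes called was 7 in the fit of only the 6 arrays, and 25 in that fit with the replicate block, all of them higher. It was 9 without distal array 1, 15 without distal array 2, 6 without distal array 3, 8 without proximal array 1 or 2, and 9 without proximal array 3. Krt1 and Krt6a were not called without any 1 array other than distal array 2, with adjusted p up to 0.224 for Krt1 and 0.18 for Krt6a. Krt13 was not called without distal array 1, distal array 3, proximal array 2 or proximal array 3 (up to 0.14), and Krt14 without distal array 3 (0.0509). The part of the amount of epithelium in the pieces in other distal calls was not tested, and Tfap2a, Wnt4 and Wnt6, described here among other groups, are also expressed by epithelium.

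**Figure D4:**
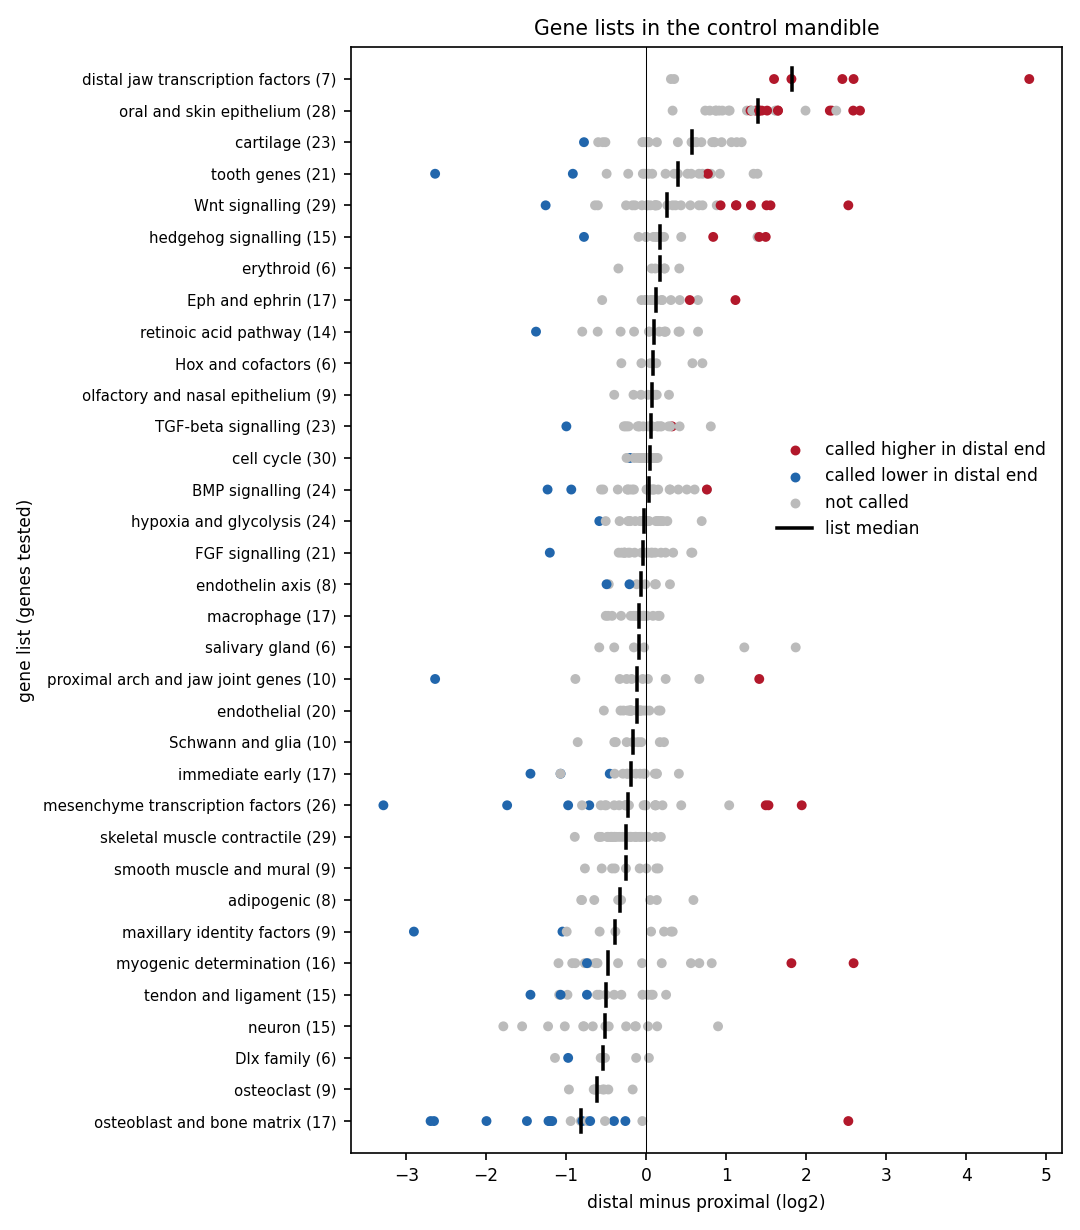
Distal minus proximal difference (log2) of each tested gene of 34 gene lists in the control mandible, 1 row a list with the number of genes tested. Red points were called higher and blue points lower at the distal end, grey points were not called, and the black bar is the list median. The distal jaw factors (median 1.82) and the epithelium (1.40) stand at the top and the bone genes (−0.82) at the bottom.

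Of 29 Wnt genes tested 7 rose and 1 fell (27.6%), with a median of 0.26, where 5.77% of all genes were called. Wnt4 was at 10.57, 10.30 and 11.45 in distal arrays, against 8.98, 9.16 and 9.52 in proximal arrays. It rose by 1.55 ± 0.28 (adjusted p = 0.00278). Wnt5a, a ligand of distal outgrowth, was at 12.21, 12.16 and 11.98 in distal arrays, against 10.53, 10.82 and 10.49 in proximal arrays. It rose by 1.50 ± 0.35 (adjusted p = 0.0158), although the call was lost without distal array 1, proximal array 1 or proximal array 3 (up to 0.0687). Sp5, a transcription factor induced by Wnt signals, rose by 1.31 ± 0.23 (adjusted p = 0.00228). Wnt6 rose by 1.13 ± 0.31 (adjusted p = 0.0372), with the call lost without distal array 3 or any 1 proximal array (up to 0.218). Wnt16 and Rspo1, named after their values were seen, rose by 1.12 and 0.93, and Sfrp4 is the seventh. The Rspo1 call was lost without any 1 of the 6 arrays (up to 0.16).

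Dkk1, a secreted inhibitor of Wnt receptors, was the 1 Wnt gene called lower. It was at 9.28, 9.68 and 9.17 in distal arrays, against 11.15, 10.77 and 9.98 in proximal arrays, and fell by 1.26 (SE 0.25, adjusted p = 0.00516). Axin2, a common readout of Wnt activity picked out after its value was seen, differed by 0.37 and did not pass (adjusted p = 0.24).

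Of 15 hedgehog genes 3 rose and 1 fell (26.7%). Besides Foxf2, Foxd1 and Ihh, the third rise was Hhip, a receptor decoy induced by hedgehog signals. Hhip was at 9.15, 9.01 and 8.64 in distal arrays, against 8.31, 8.15 and 7.83 in proximal arrays, and rose by 0.84 ± 0.16 (adjusted p = 0.00493). Of 24 BMP genes 1 rose and 2 fell, where 2.43% of all genes rose and 3.34% fell. With the replicate block 4 rose and 3 fell. Bmper, a secreted BMP-binding protein, was at 9.37, 9.69 and 8.86 in distal arrays, against 10.36, 10.80 and 10.47 in proximal arrays, and fell by 1.23 (SE 0.22, adjusted p = 0.00306). Smoc2, a secreted calcium-binding matrix protein, fell by 0.94 (SE 0.20, adjusted p = 0.00735). Nbl1, a secreted BMP antagonist, rose by 0.76 ± 0.19 (adjusted p = 0.0241), with the call lost without any 1 array other than proximal array 2 (up to 0.11).

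Of 23 TGF-beta genes 1 rose and 1 fell (8.7%), near the 5.77% called over all genes. Tgfb1, a ligand, was at 8.45, 8.29 and 8.28 in distal arrays, against 9.87, 9.02 and 9.13 in proximal arrays. It fell by 1.00 on the log2 scale (SE 0.22, adjusted p = 0.0103, and 0.0757 without proximal array 1, the highest proximal array). The ligand Tgfb2 rose by 0.32 ± 0.08 (adjusted p = 0.0229, and up to 0.109 without distal array 1 or 3 or proximal array 2 or 3, where it was not called). Tgfbr2, the gene deleted in the mutants, was at 12.07, 12.12 and 12.02 in distal arrays and at 11.95, 11.89 and 11.95 in proximal arrays. Its difference of 0.14 ± 0.09 did not pass (adjusted p = 0.484).

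The FGF list had 1 of 21 genes called, where 5.77% of all genes were, Fgf12, an intracellular member of the family, which fell by 1.21 (SE 0.18, adjusted p = 0.000687). The retinoic acid list had 1 of 14 called, and 3 with the replicate block. The 1 was Aldh1a2, which makes retinoic acid, at 9.11, 9.47 and 9.10 in distal arrays, against 10.72, 10.48 and 10.62 in proximal arrays. It fell by 1.38 (SE 0.27, adjusted p = 0.00493). Of 17 Eph and ephrin genes 2 rose and none fell (4 rose and 1 fell with the replicate block), Epha1 by 1.12 ± 0.28 (adjusted p = 0.0232) and Efnb2 by 0.54 ± 0.12 (adjusted p = 0.00842). Epha1 was not called without distal array 3, proximal array 1 or proximal array 2 (up to 0.14), nor Efnb2 without distal array 3 or proximal array 1 (up to 0.0665). Tooth genes had 1 higher and 2 lower of 21, while 15 of the 21 were higher by sign, with a median of 0.40. The replicate block gave 4 higher and 2 lower, array weights and the fit of the 12 mandible arrays each gave 8 higher and 2 lower, and the fit of the 6 arrays with the block gave 9 higher and 2 lower. Besides Barx1, Spock3, a proteoglycan, fell by 0.92 (SE 0.24, adjusted p = 0.0299) and Nkx2-3, a homeodomain factor, rose by 0.77 ± 0.17 (adjusted p = 0.00902). Spock3 was not called without any 1 array other than distal array 1 (up to 0.111), nor Nkx2-3 without distal array 1 or 3 (up to 0.0642).

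Of 29 contractile genes of skeletal muscle 25 were lower at the distal end by sign, with a median of −0.25. Of the same list 0 of 29 were called, where 5.77% of all genes were called. At that share a short list can hold 0 or 1 called genes, so the counts below say little about a cell type. On the myogenic list of 16, Isl1 and Pax3 rose and Cdh4, a cadherin, fell by 0.74 (SE 0.20, adjusted p = 0.0372). The Cdh4 call was lost without distal array 1 or 2 or proximal array 2 or 3 (up to 0.18). No gene was called among 15 neuron, 10 Schwann and glia, 20 endothelial, 17 macrophage, 9 smooth muscle, 6 erythroid, 8 adipogenic, 6 salivary gland, 9 olfactory and 6 Hox and cofactor genes. Their medians lay between −0.51 for neurons and 0.17 for erythroid genes. By sign 17 of the 20 endothelial, 13 of the 17 macrophage and 12 of the 15 neuron genes were lower. By the same measure 5 of the 6 erythroid genes were higher. With the replicate block 1 endothelial, 1 smooth muscle and 1 salivary gland gene were called lower. In the neuron list Stmn3, a stathmin of growing axons, was at 6.93, 6.76 and 6.27 in distal arrays and at 7.21, 7.86 and 10.26 in proximal arrays, and did not pass (adjusted p = 0.247). Of 30 cell cycle genes Ccnd2, a cyclin, was the 1 called. It fell by 0.20 (SE 0.05, adjusted p = 0.0208, and up to 0.0912 without distal array 2 or any 1 proximal array, where it was not called). Of 24 hypoxia and glycolysis genes P4ha1, a collagen prolyl hydroxylase, was the 1 called, against 2 higher and 3 lower with the replicate block. It fell by 0.59 (SE 0.16, adjusted p = 0.0336, and up to 0.161 without any 1 array other than proximal array 2, where it was not called).

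In all, 71 of the 518 tested genes on any list were called, 35 higher and 36 lower at the distal end, where 5.77% of all genes were called. Several of the largest differences lay outside the lists. Among rises, Them5, an acyl-CoA thioesterase, was at 9.07, 8.02 and 9.79 in distal arrays, against 4.68, 5.02 and 5.86 in proximal arrays. It rose by 3.77 ± 0.83 (adjusted p = 0.0111), with the call lost without distal array 3 or proximal array 1 (up to 0.0642), and its other probe sets gave 2.22 and, for a dim one, 0.12. Qrfpr, the receptor of a hypothalamic neuropeptide, was at 7.48, 7.07 and 7.14 in distal arrays, against 4.33, 4.16 and 4.21 in proximal arrays. Its proximal values lay far under the array medians, and its rise of 2.99 ± 0.17 had an adjusted p of 8.7e-09.

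Nts, which encodes the peptide neurotensin, was at 10.57, 10.24 and 10.33 in distal arrays, against 7.95, 7.42 and 7.78 in proximal arrays, a rise of 2.66 ± 0.47 (adjusted p = 0.00258). Cacna2d3, a calcium channel subunit, rose by 2.37 ± 0.44 (adjusted p = 0.0035), and Mcpt2, a mast cell protease, by 2.32 ± 0.41 (adjusted p = 0.00263). Tmprss11a, an epithelial serine protease, rose by 2.69 ± 0.41 (adjusted p = 0.000857). Hpse2, a heparanase-like protein, rose by 2.58 ± 0.62 (adjusted p = 0.0191) and Serpinb12, a protease inhibitor of epithelia, by 2.40 ± 0.66 (adjusted p = 0.0383). Hpse2 was not called without any 1 array other than distal array 3 (up to 0.0719), nor Serpinb12 without any 1 other than distal array 2 (up to 0.214). The Serpinb12 difference was 1.78 without distal array 3 and 3.05 without distal array 2.

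Among falls, Vit, which encodes the matrix protein vitrin, was at 6.10, 6.53 and 5.88 in distal arrays, against 8.79, 9.02 and 8.73 in proximal arrays. It fell by 2.68 (SE 0.17, adjusted p = 1.91e-08). Shisa3, an antagonist of Wnt and FGF receptors, was at 5.85, 7.00 and 6.14 in distal arrays, against 9.40, 9.58 and 9.72 in proximal arrays. It fell by 3.23 (SE 0.53, adjusted p = 0.00163), and a second probe set gave −3.54. Crh, corticotropin-releasing hormone, fell by 3.04 (SE 0.71, adjusted p = 0.0161), with the call lost without distal array 1 or 3 or proximal array 2 or 3 (up to 0.0727).

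Adgrd1, an adhesion receptor, fell by 2.53 (SE 0.31), and Mamdc2, a secreted glycoprotein, fell by 2.27 (SE 0.33). Cgref1, a calcium-binding protein, fell by 2.20 (SE 0.40), and Ppm1e, a phosphatase, fell by 2.11 (SE 0.23). Vstm2a, a secreted immunoglobulin-domain protein, fell by 2.11 (SE 0.32). Slitrk1, a synaptic membrane protein, fell by 2.28 (SE 0.30). These 6 had adjusted p of at most 0.00314. Chgb, chromogranin B of secretory granules, was at 5.84, 5.48 and 5.68 in distal arrays, against 7.29, 7.09 and 9.43 in proximal arrays. It fell by 2.27 (SE 0.44, adjusted p = 0.00419), and its difference was −1.53 without proximal array 3, the array with the high neuron list mean. The Chgb call was lost in the fit of only the 6 arrays (adjusted p = 0.0835, and 0.0542 with the replicate block). All 3 distal values lay under the array medians for Vit, Crh, Adgrd1, Slitrk1, Chgb and Vstm2a. Over the 740 calls this was so for 50 genes at the distal and 49 at the proximal end.

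The control mandible was then set beside the control maxilla, on other arrays, to ask which differences between the ends hold in both jaws. In the maxilla 1077 of the 12820 genes were called (8.4%), 652 of them higher and 425 lower at the distal end. Of the 312 genes higher at the distal end of the mandible, 248 were also higher by sign in the maxilla, 88 of them called, and 2 were called lower there. Of the 428 genes lower at the distal end of the mandible, 173 were also lower by sign in the maxilla, 28 of them called, and 35 were called higher there. The share of all genes with the same sign in both jaws was not computed, so these sign counts have no background here. The difference between the jaws was tested as an interaction, mandible minus maxilla, which uses the same mandible arrays. It was called for 514 genes (4.01%), 142 positive and 372 negative, and for 1216 with the replicate block. That block assumes that same-numbered maxilla arrays pair, but the distal and proximal maxilla arrays numbered 2 differed in Xist, at 12.97 and 6.49. Of the 740 mandible calls the interaction took in 252, of which 48 were higher and 204 lower at the distal end of the mandible. The interaction count was lowest, 183, without proximal mandible array 1, and 394 or less without any other single array. It was also more than 1.5 times lower without distal mandible array 1 (300) or 3 (298), distal maxilla array 1 (315) or 2 (287), or proximal maxilla array 1 (292) or 3 (300).

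Hand2 and Alx1 showed different patterns in the 2 jaws. Hand2 was at or under the array medians in the maxilla, at 5.40, 5.56 and 5.63 in distal and 6.97, 6.08 and 6.06 in proximal arrays, and a difference between these low signals enters its interaction (3.29, adjusted p = 0.00207). Alx1 was bright at both ends of the maxilla, at 12.25, 12.95 and 12.53 in distal and 11.38, 11.86 and 11.81 in proximal arrays (interaction 3.90, adjusted p = 0.00381). Tbx22 went opposite ways. In the mandible it was at 8.76, 8.60 and 9.31 in distal arrays, against 7.00, 7.04 and 6.80 in proximal arrays. In the maxilla it was at 6.52, 6.26 and 7.42 in distal arrays, against 9.30, 9.53 and 8.60 in proximal arrays (interaction 4.35, adjusted p = 0.00135).

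Bone genes differed between the jaws. The list median was −0.82 in the mandible and 0.58 in the maxilla, and the interaction was called for 10 of the 17 genes, all 10 negative. Over all genes 4.01% had a called interaction, 142 positive and 372 negative. Dmp1 in the maxilla was at 11.81, 10.06 and 10.90 in distal arrays and at 11.11, 9.60 and 8.97 in proximal arrays, with overlap (interaction −3.73, adjusted p = 0.0106). Of the 9 osteoclast genes 3 had a called interaction, all 3 negative. Epithelial genes were called higher at the distal end of both jaws, 13 of 28 in the mandible and 16 of 28 in the maxilla, and 3 had a called interaction. Of all 12820 genes, 312 were called higher in the mandible and 652 in the maxilla. Barx1 fell at the distal end of both jaws, with a difference of −2.64 in the mandible and −1.96 in the maxilla (adjusted p = 0.0367), and an interaction of −0.68 ± 0.79 that did not pass. Of the Dlx genes, Dlx2 and Dlx3 had called interactions of −1.87 (adjusted p = 0.0235) and −1.32 (adjusted p = 0.0294). The Dlx2 call was lost without distal mandible array 3, proximal mandible array 1 or 2, distal maxilla array 2 or proximal maxilla array 1 (up to 0.0649). The Dlx3 call held only without proximal mandible array 3, distal maxilla array 1 or proximal maxilla array 2 (up to 0.0878 in the other fits).

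The mandible was last set beside the mutant mandible, again on separate arrays. Tgfbr2 was at 12.07, 12.12 and 12.02 in control distal and 11.95, 11.89 and 11.95 in control proximal arrays. In arrays labelled mutant it was at 12.41, 12.36 and 12.37 in distal and 12.21, 12.26 and 12.30 in proximal arrays, and so was not lower. Where its probe set lies relative to the deleted part is not given, so these values do not check the labels. The mutant mandible had more calls, 2220 higher (17.3%) and 1248 lower (9.73%) at its distal end. Of the 312 genes higher at the distal end of control mandibles, 309 were higher by sign in mutants, and 291 of them were called. Of the 428 lower genes, 425 were lower by sign and 383 were called. None was called in the opposite direction. Over all genes tested 74.9% had the same sign in both. The difference was larger in the mutant mandible for 548 of the 740 genes. The same share over all genes was not computed.

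No gene passed the test of the difference between genotypes (0%, control minus mutant), with a smallest adjusted p of 0.118 and 1025 genes (8% of all) at an unadjusted p under 0.05. The replicate block gave 2 calls. The median SE of this interaction was 0.15, so smaller changes than a few times that could not be measured for a typical gene. Alx1 was at 11.65, 12.35 and 11.88 in mutant distal arrays and at 7.63, 8.06 and 8.11 in mutant proximal arrays, a difference of 4.02, against 4.79 in controls. Dmp1 differed by −2.70 in control and −3.64 in mutant mandibles, and Phex by −2.65 in control and −4.08 in mutant mandibles. Of the bone list 11 genes were called lower in control and 14 in mutant mandibles, with medians of −0.82 in control and −1.48 in mutant mandibles. Over all genes 3.34% were called lower in control and 9.73% in mutant mandibles.

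The cartilage list had a median of 0.57 in control and −2.36 in mutant mandibles, but none of its genes had a called interaction, and its list mean ranged from 8.21 to 10.25 among the 3 mutant distal arrays. Among the genes with the smallest unadjusted p in this interaction, Qrfpr differed by 2.99 in control and 4.37 in mutant mandibles and Tlx1, a homeobox gene, by 0.70 in control and 1.73 in mutant mandibles. Cdh3, a cadherin of epithelia, differed by 0.37 in control and 1.22 in mutant mandibles. Aspn, a small matrix proteoglycan, differed by −0.32 in control and −1.54 in mutant mandibles. Agt, angiotensinogen, differed by −0.14 in control and −1.15 in mutant mandibles, and A2m, a protease inhibitor, by 0.26 in control and −1.39 in mutant mandibles.

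**Figure D5:**
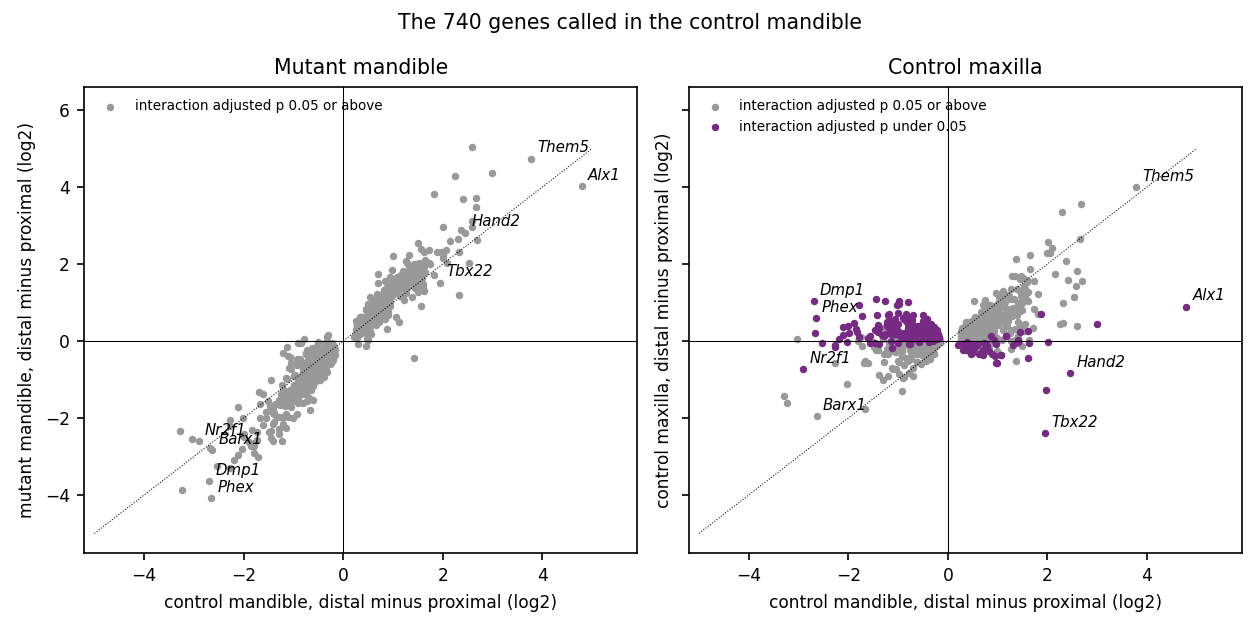
Distal minus proximal difference (log2) of the 740 genes called in the control mandible, with the control mandible on both horizontal axes. The vertical axes give the same difference in the mutant mandible (left) and the control maxilla (right), and the dotted line marks equal values. Purple points had a called interaction, 0 on the left and 252 on the right.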

How the data were processed

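RNA of 24 samples (8 groups of 3) was hybridised to Affymetrix Mouse430_2 arrays after labelling 5 µg of total RNA, per the labels' protocols. The deposited values are log2 signals made by the authors with RMA in Partek 6.6, per the submitters' processing notes. No detection calls were used, and the number of arrays limits the precision. Of 45101 probe sets, 34945 had 1 gene symbol in the platform annotation, 932 had several and 9160 had none. The brightest single-symbol probe set stood for each of 18193 genes. Genes above the array median in at least 3 of 24 arrays entered (12820). limma 3.58.1 in R 4.3.3 was fitted to all 24 arrays in 8 groups, two-sided, with Benjamini-Hochberg adjustment over all genes. The fitting script was tested on simulated data.

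Same-numbered distal and proximal control mandible arrays deviated together from their group means (correlations 0.459, 0.537 and 0.528). By these values the numbers pair the control mandible samples, while the labels state no pairing. In the control maxilla the same correlations were 0.497, 0.182 and 0.11. Xist was at 12.97 in distal and 6.49 in proximal maxilla array 2. The replicate block gives each number 1 effect per genotype over both jaws. It thus assumes a pairing that the maxilla arrays numbered 2 do not show. The main design has no block.

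Genes named are the 15 largest non-overlapping rises and falls, all tested members of 4 patterning lists, the leading members of other lists, and the leading genes of each interaction. Lists and members were chosen with earlier results of these data known. Promoter sequences are from RefSeq (GRCm38.p6). Alternatives covered normalization, filtering, probe sets, array weights, blocks and arrays left out.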

Additional observations from a re-analysis of the deposited data

Results flagged for a closer look

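The distal minus proximal difference of 12 genes, named by rule as the largest each way, differed between control mandible and control maxilla by the interaction test. The interaction (mandible minus maxilla, log2) was 4.35 for Tbx22, 3.90 for Alx1, 3.29 for Hand2, 3.23 for Ckmt1, 2.56 for Qrfpr and 2.35 for Ctxn3. It was −3.74 for Dlx1as, −3.73 for Dmp1, −3.24 for Phex, −3.19 for Egr3, −2.89 for Vit and −2.72 for Srpx2. Dlx1as differed by 0.15 in the mandible and 3.89 in the maxilla, and Ctxn3 by −0.09 in the mandible and −2.44 in the maxilla. Srpx2, a secreted sushi-domain protein, differed by −1.79 in the mandible and 0.94 in the maxilla, both called. Egr3, an immediate early gene, differed by −1.07 in the mandible, where it did not pass, and 2.12 in the maxilla. Ckmt1, a mitochondrial creatine kinase, differed by 1.97 in the mandible and −1.26 in the maxilla. The Phex interaction was not called without distal or proximal mandible array 1, distal maxilla array 1 or proximal maxilla array 3 (adjusted p up to 0.0681). The Ctxn3 interaction was not called without distal mandible array 1 or 2, proximal mandible array 1, distal maxilla array 2 or proximal maxilla array 2 or 3 (up to 0.0662). The Ckmt1 interaction was not called without proximal mandible array 1 (0.0558).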

How the results depend on the processing

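The count of 740 control mandible calls was 1382 with the replicate block, 1470 with a replicate block by jaw added after seeing the data, 751 in a fit of the 6 arrays, of which 482 were among the 740, 1494 in that fit with replicate block, 1779 with array weights and 221 with a minimum size of 1 on the log2 scale. It was 369 without both arrays numbered 2 and 221 without both numbered 3, both added after seeing the data, and 303 to 593 without 1 array. The jaw interaction count of 514 was 1216 with the replicate block, 1433 with the block by jaw, 2003 with array weights and 183 to 394 without 1 array. The genotype interaction count of 0 was 2 with the replicate block, 5 with the block by jaw, 80 with array weights and 0 to 5 without 1 array. The 71 listed genes called were 110 with the block by jaw, 136 with array weights, 117 with the 12 mandible arrays, 167 with the 6 arrays and replicate block, and 47 at the minimum size. They were 39 without both arrays numbered 2, 25 without both numbered 3 and 39 to 59 without 1 array. Quantile normalization gave 797 mandible calls, median centring 755, no filter 683, a stricter filter 734, probe set means 652, and a trended robust fit 745. No value tested changed sign in a way that reversed a call. Of the 76 named genes called, 30 kept the call under every alternative and 43 without any single array. The cause of these changes was not tested, and the fits that leave arrays out also hold fewer arrays. Under the replicate block, among the named genes, Mef2c lost its call, and Hand1, Six2, Smtn, Bhlha15, Rbp4, Slc2a1, Hk1 and Egr3 gained one.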

Other observations

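Among the arrays set beside the control mandible, Xist was at 12.49 to 13.08 in the 6 mutant mandible arrays while the Y-linked Eif2s3y was at 8.81 to 9.59 in the same arrays. Both signals stood together in each of them, as in the control mandible arrays numbered 2.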
